A study of Homo sapiens with 4 samples.

Results

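The ZNF genes outside chromosome 19 are protein-coding genes of GENCODE on chromosomes 1 to 18 and 20 to 22 whose symbol is ZNF, digits and optional letters. The rule gave 251 of 20046 protein-coding genes. Of these, 228 encoded at least 2 matches to a C2H2 zinc finger pattern, with a median of 9 matches over the 251 genes and a highest value of 36 in ZNF142. In 10 genes no match was found, among them ZNF593OS, an opposite-strand gene whose symbol fits the rule without being a zinc finger gene. The m6A meRIP-seq series was made to map N6-methyladenosine in OE-19 cells, an established line of adenocarcinoma of the esophagogastric junction. It held 4 samples of OE-19 cells for which the labels name no treatment, 2 replicates of RNA pulled down with an m6A antibody (IP) and 2 replicates of input RNA, which received no antibody. Peaks were listed for each IP replicate on its own, and the input was not analysed here. The labels do not say whether the replicates came from separate cultures.

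A C2H2 zinc finger is a short fold held by a zinc ion between a pair of cysteines and a pair of histidines, and tandem fingers read DNA or RNA sequence. Many human ZNF proteins carry a KRAB domain before the finger array and recruit the corepressor TRIM28 to transposable elements, and these genes are most dense on chromosome 19. The finger array of such genes usually lies in a single long last exon. m6A is placed on nascent RNA by the METTL3-METTL14 complex at DRACH sites, of which GGAC is the preferred core, and it is known to collect in long exons and around stop codons.

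The sequence around the summit was examined first, at the strongest peaks of these genes. The fold enrichment of a shared peak, averaged over the replicates as a geometric mean, was highest in ZNF131, ZNF500, ZNF407, ZNF619, ZNF117, ZNF142, ZNF436, ZNF821, ZNF451 and ZNF169, in this order. In 6 of these 10 genes the stretch from 50 nt before to 50 nt after the replicate 1 summit lay wholly within the CDS and is printed 5′ to 3′ on the gene strand, with each GGAC in capitals. They lie on hg38 at chr5:43174680-43174780 (ZNF131, plus strand, exon 7 of 7), chr18:74635271-74635371 (ZNF407, plus strand, exon 2 of 9), chr3:40486878-40486978 (ZNF619, plus strand, exon 6 of 6), chr2:218642550-218642650 (ZNF142, minus strand, exon 9 of 11), chr16:71860023-71860123 (ZNF821, minus strand, exon 8 of 8) and chr9:94301006-94301106 (ZNF169, plus strand, exon 5 of 5).
ZNF131: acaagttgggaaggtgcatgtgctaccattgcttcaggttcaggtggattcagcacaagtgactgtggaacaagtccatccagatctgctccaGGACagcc
ZNF407: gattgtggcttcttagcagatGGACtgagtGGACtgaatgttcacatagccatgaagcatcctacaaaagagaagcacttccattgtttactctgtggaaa
ZNF619: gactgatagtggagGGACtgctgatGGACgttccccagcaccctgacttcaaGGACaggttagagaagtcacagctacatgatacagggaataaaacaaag
ZNF142: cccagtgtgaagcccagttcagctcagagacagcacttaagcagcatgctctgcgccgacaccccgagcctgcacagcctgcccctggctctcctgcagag
ZNF821: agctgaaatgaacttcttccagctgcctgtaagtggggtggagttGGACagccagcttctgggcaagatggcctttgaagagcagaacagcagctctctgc
ZNF169: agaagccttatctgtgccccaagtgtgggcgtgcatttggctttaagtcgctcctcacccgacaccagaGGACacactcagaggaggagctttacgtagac

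The windows of 3 of these genes lay within the finger array (ZNF407, ZNF142 and ZNF169), that of ZNF619 lay before it, and those of ZNF131 and ZNF821 after it. The ZNF619 window held 3 GGAC, the adenine of the nearest one 4 nt downstream of the summit. In ZNF821 the adenine of its only GGAC was 3 nt upstream of the summit, in ZNF407 the nearest was 18 nt upstream, in ZNF169 it was 21 nt downstream and in ZNF131 45 nt downstream. The ZNF142 window had no GGAC and 1 other DRACH match. A summit of a peak marks where pulled-down fragments pile up most, not the methylated base, and no match says only that these letters are absent from the window. The ZNF821 summit lay in exons of more than 1 gene, and the lists carry no strand.

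To determine how often these genes carried m6A peaks, a gene was counted when the summit of a peak lay in one of its exons. In replicate 1, 196 of the 251 ZNF genes had an exonic peak (78.1%, 95% Wilson interval 72.6% to 82.8%). In replicate 2, 182 had one (72.5%, interval 66.7% to 77.7%). Both replicates had a peak in 180 genes (71.7%, interval 65.8% to 76.9%). Among all 17635 protein-coding genes of the same chromosomes, the shares were 42.8% in replicate 1, 34.6% in replicate 2 and 33.8% in both. A further 16 ZNF genes had a peak in replicate 1 only, 2 in replicate 2 only, and 53 in neither. These intervals cover counting error over genes only. Intervals over peaks, summits or windows below count each one singly, although a gene can hold several, so they leave out clustering within genes. With 1 group of 2 libraries there is no test between groups, so the differences below are descriptions with no p-value. The lists give no read numbers, and the depth is unknown.

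The difference remained when other genes were weighted to the same lengths. The exons of the ZNF genes covered a median of 5541 nt and those of the 17350 other genes 4547 nt, where other genes are those of the same chromosomes that are neither ZNF nor ZFP, ZSCAN or ZKSCAN genes. Other genes weighted to the exonic lengths of the ZNF genes in 20 bins had a peak in both replicates in 38.4% of cases, which set the ZNF genes 1.87 times higher. The ratio was 1.62 in replicate 1 and 1.85 in replicate 2. In each of 5 classes of exonic length the ZNF genes had the higher share. In the shortest class, up to 2244 nt, 7 of 12 ZNF genes had a peak in both replicates (58.3%) against 11.8% of other genes. In the longest class, 48 of 63 had one (76.2%) against 49.1%. The intervals of ZNF genes and other genes did not overlap in any class. The ZNF genes on chromosome 19 had a peak in both replicates in 124 of 246 genes (50.4%, interval 44.2% to 56.6%), 1.32 times the share of other genes of like length. The related ZFP, ZSCAN and ZKSCAN genes outside chromosome 19 had one in 24 of 34 (70.6%). This was 1.97 times the share of other genes of like length, so the higher share was not particular to the ZNF genes. Peak calling needs reads, so a gene without a peak can be unmethylated or little expressed, and no expression was measured here: the part of expression in these shares was not tested.

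**Figure D1:**
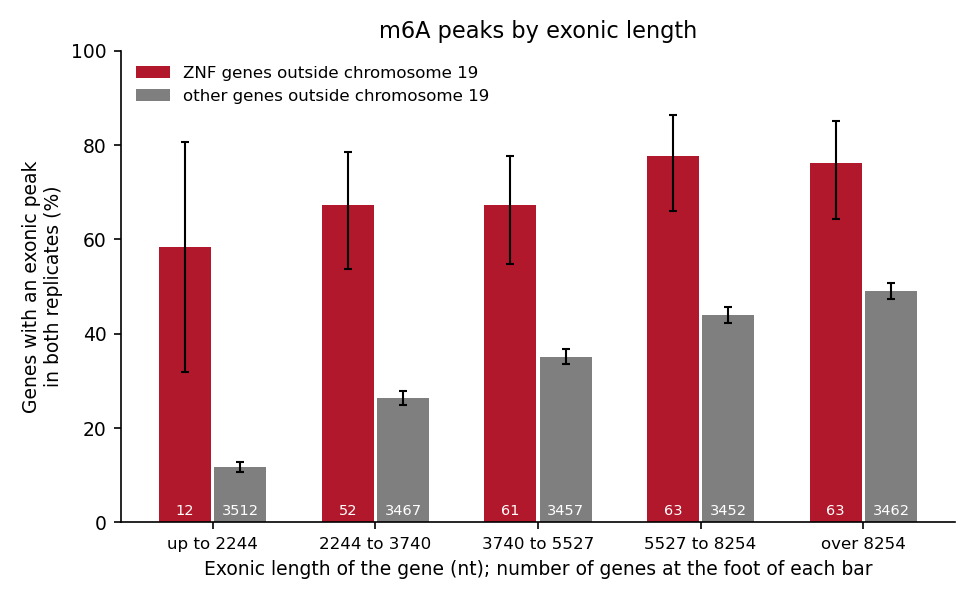
Percent of genes with an exonic m6A peak in both replicates (y axis) in 5 classes of exonic length in nt (x axis), for ZNF genes outside chromosome 19 (red) and the 17350 other protein-coding genes of the same chromosomes, without the ZFP, ZSCAN and ZKSCAN genes (grey), with 95% Wilson intervals as bars and the number of genes at the foot. ZNF genes range from 58.3% to 77.8% and other genes from 11.8% to 49.1%, with no overlap of the intervals in any class.

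Next, the strength of the peaks was compared. The deposited fold enrichment is the authors' ratio of IP signal at a summit to the caller's local background. Here and below, a peak with its summit in exons of several protein-coding genes was counted once for each gene. The 507 exonic peaks of ZNF genes in replicate 1 had a median fold enrichment of 6.72 (quartiles 4.69 and 9.36), against 5.18 for 16596 peaks of other genes. In replicate 2, 407 peaks had a median of 5.77 (quartiles 4.37 and 7.82), against 4.67 for 10811. Both medians of the ZNF genes therefore lay above both medians of the other genes. A fold enrichment of 10 or more was reached by 22.3% of ZNF peaks in replicate 1 and 10.1% in replicate 2, against 12.3% and 6.29% of other peaks. The median was also higher for ZNF genes in each of the 5 length classes in both replicates. ZNF genes on chromosome 19 had like medians, 6.89 and 5.88. The ratio depends on the local background, so it is not a measure of m6A per transcript.

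The number of peaks per gene was likewise examined. In replicate 1, 57 ZNF genes had 1 exonic peak, 64 had 2, 28 had 3 and 47 had 4 or more. In replicate 2, 68 had 1, 60 had 2, 22 had 3 and 32 had 4 or more. The ZNF genes with a peak held 0.394 peaks per kb of exon in replicate 1 and 0.334 in replicate 2, while other genes with a peak held 0.324 and 0.253.

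The replicates were then compared peak by peak. Of the replicate 1 peaks in ZNF genes, 369 (72.8%, interval 68.7% to 76.5%) overlapped a peak of replicate 2, against 60.9% in other genes. The share was 65.4% in ZNF genes on chromosome 19 and 73.9% in the ZFP, ZSCAN and ZKSCAN genes. Of the replicate 2 peaks in ZNF genes outside chromosome 19, 390 (95.8%) overlapped one of replicate 1, against 95.9% in other genes. The 138 unshared peaks of replicate 1 were weaker, with a median fold enrichment of 4.48 against 7.72 for the shared ones. For 352 pairs, the peaks of the 2 replicates were mutually the largest overlap. Across these pairs, Pearson's r of the log2 fold enrichment was 0.565 and Spearman's rho was 0.514. The same values over 9780 pairs of other genes were 0.711 and 0.698. Over 189 pairs of ZNF genes on chromosome 19 they were 0.467 and 0.461. Over 50 pairs of ZFP, ZSCAN and ZKSCAN genes they were 0.590 and 0.504. These are correlations across peaks, which share a library and often a gene, and are given without a p. In 74.1% of the ZNF pairs the value was higher in replicate 1, by a median of 0.38 on the log2 scale. The summits of a pair lay a median of 31.5 bp apart, and 65.1% lay within 50 bp.

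**Figure D2:**
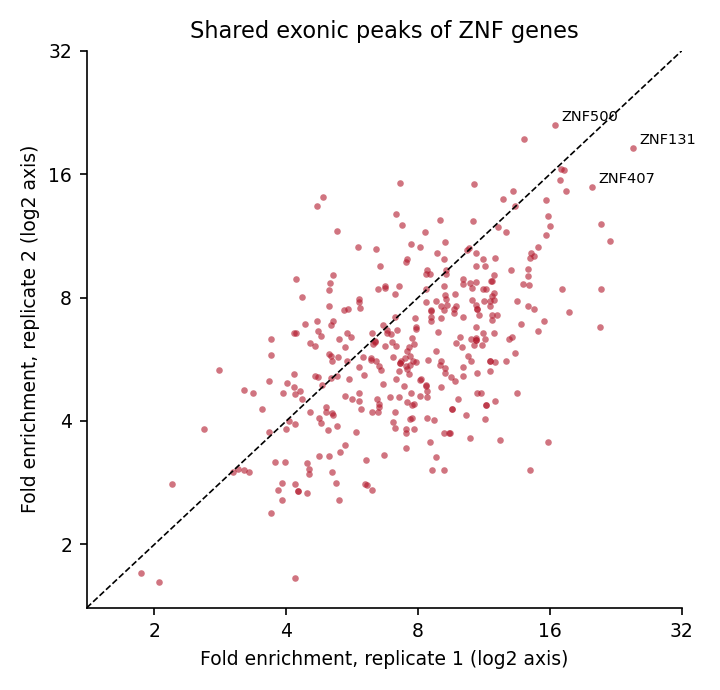
Fold enrichment of 352 shared exonic peaks of ZNF genes outside chromosome 19 in replicate 1 (x axis) and replicate 2 (y axis), both on log2 axes, 1 point per pair, with the line of equal values dashed and the 3 pairs of largest geometric mean named. Most points (74.1%) lie below the line, on the side of replicate 1.

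To locate the signal within the transcript, summits were placed on the transcript with the longest CDS, and 200 nt to either side of the stop codon were set apart as a window. In replicate 1, 302 of 473 ZNF summits (63.8%, interval 59.4% to 68.0%) lay in the CDS outside this window, a region that held 46.0% of the length of the same transcripts. In replicate 2, 242 of 389 did (62.2%, interval 57.3% to 66.9%). Summits of other genes lay there less often, in 48.0% and 47.1%. The related ZFP, ZSCAN and ZKSCAN genes had a like share of 62.5% and 64%, and ZNF genes on chromosome 19 had 55.9% and 59.5%. The stop codon window held 15.6% of the ZNF summits in replicate 1 and 17.7% in replicate 2, 1.59 and 1.90 times its share of length. In other genes it held 25.2% and 27.9%, 2.29 and 2.67 times its share. In the ZFP, ZSCAN and ZKSCAN genes it held 12.5% and 14%, and in ZNF genes on chromosome 19 18.9% and 16.2%. The rest of the 3′ UTR was thin in ZNF summits, with 13.95% and 14.4% of them on 36.6% and 37.3% of the length. The 5′ UTR held 6.55% and 5.66%. The stop codon window was thus above its length share in ZNF genes too, but by less than in other genes. The intervals of ZNF and other genes did not overlap in either replicate for the CDS or the stop codon window. They count summits as independent, although a ZNF gene held up to 11 peaks. Exonic summits outside the transcript used, 34 in replicate 1 and 18 in replicate 2, were left out.

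**Figure D3:**
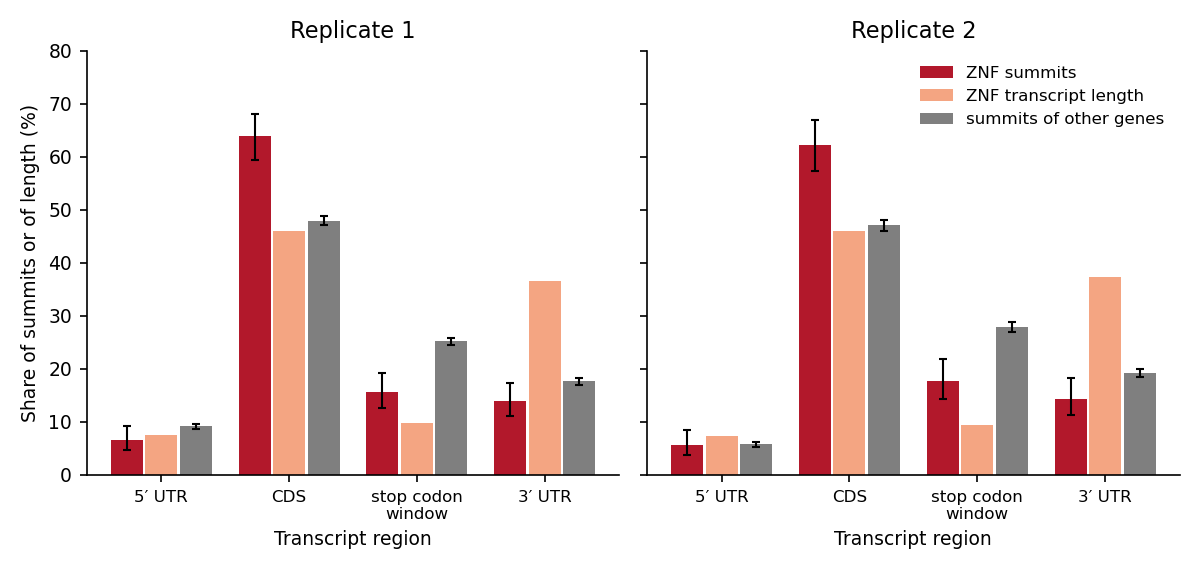
Percent of exonic summits in 4 transcript regions, for ZNF genes outside chromosome 19 (red) and other genes (grey), with 95% Wilson intervals, and percent of the length of the ZNF transcripts that each region holds (light red), in each replicate. CDS stands for the CDS outside 200 nt to either side of the stop codon, where ZNF summits reach 63.8% and 62.2% against 48.0% and 47.1% in other genes.

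The exons that carried the summits were long. The median exon at a ZNF summit was 2347 nt in replicate 1 and 2783 nt in replicate 2, against 1049 and 1533 nt in other genes. Exons of 400 nt or more held 85.0% and 91.3% of ZNF summits and 84.2% and 85.7% of the transcript length. In other genes they held 75.3% and 88.9% of summits on 66.9% and 70.5% of the length. The ratio to the length share was thus lower in ZNF genes, 1.01 and 1.06, than in other genes, 1.12 and 1.26. The last exon held 66.2% and 71.7% of ZNF summits, close to its share of the length, 71.0% and 72.0%. On chromosome 19, 91.3% and 94.8% of the ZNF summits lay in the last exon, which held 85.3% and 86.1% of the length. Long internal exons held 16.7% and 17.7% of the ZNF summits outside chromosome 19, on 10.9% and 11.3% of the length, against 1.05% and 1.43% of those on chromosome 19. The share was higher in other genes, with 18.9% and 24.6%, and in the ZFP, ZSCAN and ZKSCAN genes, with 29.7% and 30%. Against the length, the ratio was 1.54 and 1.57 in the ZNF genes and 1.77 and 2.07 in other genes. ZNF407, whose strongest summit lay in exon 2 of 9, is an example.

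Within the CDS, the finger array is the repeated part. It was taken as the stretch from the first to the last C2H2 match, so it includes any sequence between distant fingers. In the 164 ZNF genes with CDS summits and an array in replicate 1, 153 of 316 CDS summits (48.4%, interval 43.0% to 53.9%) lay in the array, which held 52.0% of the CDS length. In replicate 2, 132 of 264 did (50%, interval 44.01% to 55.99%) on 51.9% of the length. The part before the array held 42.7% and 38.3% of summits on 39.3% and 39.1% of the length. Summits were therefore spread over array and preceding sequence about as their lengths were, and each length share lay within the interval. On chromosome 19 the array held 61.6% and 62.1% of CDS summits on 63.5% and 63.0% of the length. The median fold enrichment was 7.22 in the array and 6.81 before it in replicate 1, and 6.06 and 5.61 in replicate 2.

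The letters at the summits were examined next, over all summits and then by place in the CDS. Over all ZNF summits, GGAC on the gene strand lay within 50 nt of 41.6% of summits in replicate 1 (interval 37.3% to 46.1%) and 43.2% in replicate 2 (interval 38.4% to 48.2%). Windows of the same width tiled over the transcripts of the ZNF genes with a peak held it in 26.0%. The reverse complement GTCC was in 22.6% and 23.1% of summit windows and 23.1% of tiled windows. In other genes GGAC was in 50.8% and 52.4% of summit windows and 31.2% of tiled windows. The ratio to the tiled share of GGAC was 1.60 and 1.66 in ZNF genes and 1.63 and 1.68 in other genes. GTCC was in 30.8% and 29.0% of summit windows of other genes and 25.9% of their tiled windows. Its ratio was 1.19 and 1.12 there, against 0.98 and 1.00 in ZNF genes. Summit windows of ZNF genes also had more G and C, 52.8% and 52.6% against 47.1% in the tiled windows, and the part of base composition in the GGAC share was not tested. In the array, GGAC was in 31.4% of summit windows in replicate 1 and 37.1% in replicate 2, while before the array it was in 55.6% and 49.5%. The tiled windows of the same CDS differed in the same direction, with 22.2% in the array and 39.2% before it. The part of this background in the difference between summits was not tested. In replicate 1 the intervals of array and preceding sequence did not overlap, while in replicate 2 they did, from 29.4% to 45.6% and from 39.95% to 59.1%. These intervals likewise leave out clustering of summits within genes. Peaks with GGAC in the window had a median fold enrichment of 7.26 in replicate 1 against 6.45 without it, and of 6.12 against 5.61 in replicate 2.

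**Figure D4:**
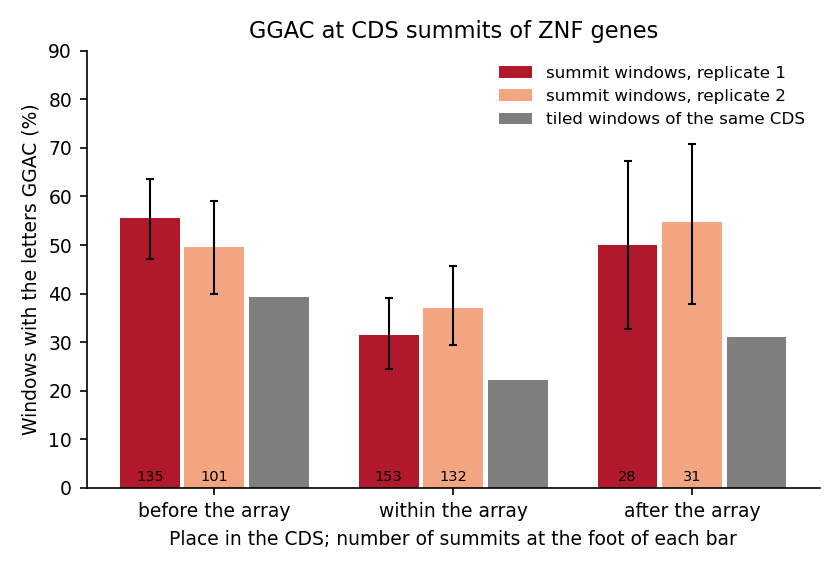
Percent of windows of 50 nt to either side with the letters GGAC, around CDS summits of ZNF genes outside chromosome 19 in each replicate (dark and light red, with 95% Wilson intervals and the number of summits at the foot) and in windows tiled over the CDS of the same genes (grey), by place relative to the finger array. Within the array the shares are 31.4%, 37.1% and 22.2%, and before it 55.6%, 49.5% and 39.2%.

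The genes were then grouped by a sequence pattern of the KRAB A box, which was found in 80 of the 251 proteins. The pattern is strict and domain annotation was not used, so genes without the pattern may still encode a KRAB domain. Of these 80 genes, 55 had a peak in both replicates (68.8%, interval 57.9% to 77.8%), as did 125 of 171 without the pattern (73.1%, interval 66.0% to 79.2%). Each interval held the other share. The median fold enrichment was 7.55 with the pattern and 6.40 without it in replicate 1, and 6.13 and 5.61 in replicate 2. On chromosome 19, 84 of 186 genes with the pattern had a peak in both replicates (45.2%, interval 38.2% to 52.3%) against 40 of 60 without it (66.7%, interval 54.1% to 77.3%). Genes with the pattern outside chromosome 19 thus had a higher share than genes with the pattern on it, and these intervals did not overlap. The number of fingers gave no order. The share with a peak in both replicates was 50% (5 of 10) with no match, 65.4% with 1 to 4, 79.5% with 5 to 9, 65.8% with 10 to 14 and 83.3% with 15 or more, with overlapping intervals.

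The strongest peaks are described gene by gene. ZNF131, a BTB domain protein of transcriptional regulation (ENSG00000172262.12, chr5:43065176-43192021), had fold enrichments of 24.8 in replicate 1 and 18.5 in replicate 2, with summits 2 bp apart and 401 and 403 nt before the stop codon. A further shared peak in exon 6 reached 10.9 and 6.77. ZNF500 (ENSG00000103199.14, chr16:4748239-4767624) had 16.4 and 21.04 at a summit in its 3′ UTR, 168 and 147 nt after the stop codon. In both genes the summits of the replicates nearly coincided. Here and below, the strongest shared peak of a gene is the one with the largest geometric mean of both replicates.

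ZNF407 (ENSG00000215421.10, chr18:74597870-75065671) had 19.997 and 14.9 within its array of 23 fingers, and in all 6 peaks in replicate 1 and 5 in replicate 2, each shared. ZNF142 (ENSG00000115568.16, chr2:218633329-218659655) had 13.98 and 19.5 at a summit in exon 9 and further shared peaks from exon 4 to the 3′ UTR. ZNF619, a KRAB gene, had 17.3 and 16.3 before its array, and ZNF169, also a KRAB gene, 21.9 and 10.999 inside it. ZNF821 had 20.96 and 12.1 close to the end of its CDS, 53 and 70 nt before the stop codon. In ZNF117 and the KRAB gene ZNF436 the summits lay in the 3′ UTR, 1074 and 1087 nt and 375 and 359 nt past the stop codon, with 16.9 and 16.5 and with 16.8 and 15.5. ZNF451, a SUMO ligase, had 17.4 and 14.6 in an exon outside its transcript with the longest CDS. Of these 10 strongest peaks, 6 lay in the CDS and 3 in the 3′ UTR of the transcript used.

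A different set had the most peaks. ZNF469, a very large protein whose loss causes brittle cornea syndrome, had 11 exonic peaks in each replicate, all in exon 3 of 3. In replicate 1 their fold enrichment ran from 5.06 to 14.5, and 10 of the 11 overlapped a peak of replicate 2. ZNF316, a KRAB gene, had 7 and 7 peaks from its 5′ UTR to its 3′ UTR, with 10.5 and 8.71 at the strongest, near the start of the array. ZNF318, a cofactor of the androgen receptor, had 7 and 7, all in the CDS. ZNF292 had 7 and 6, all in exon 8 of 8, with 8.44 and 8.35 as the highest values. ZNF276 had 7 and 6, ZNF629 had 5 and 6, and ZNF862 and ZNF282 had 5 in each replicate. ZNF407 and ZNF142, described above, complete the 10 genes with the most peaks. Their exons covered 3761 nt (ZNF282) to 21258 nt (ZNF292).

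**Figure D5:**
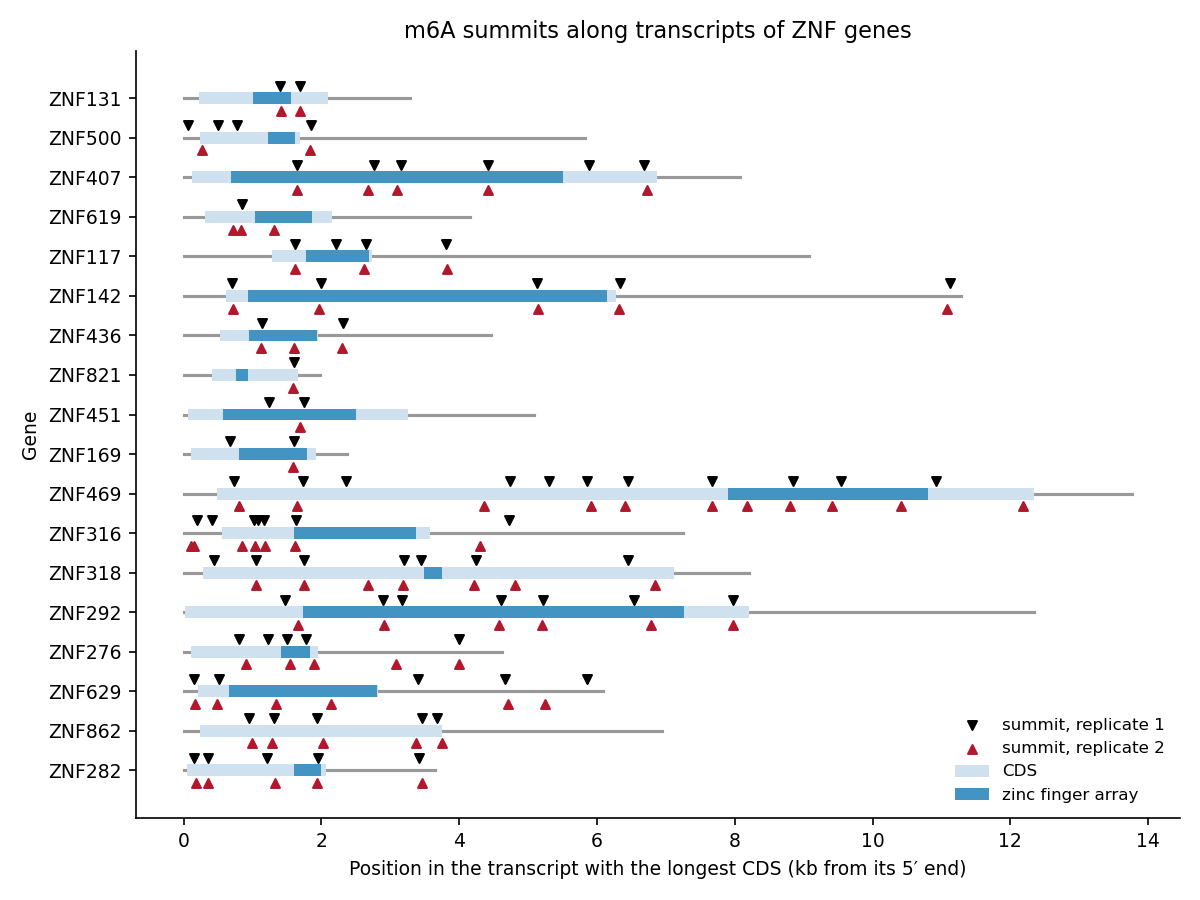
Transcripts with the longest CDS of the 18 ZNF genes with the strongest or most m6A peaks, with position in kb from the 5′ end (x axis), the CDS (light blue), the finger array from first to last C2H2 match (blue), and summits of replicate 1 (black, above) and replicate 2 (red, below). The 11 summits per replicate of ZNF469 run along its CDS, while those of ZNF131 lie in and after its array.

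Among 22 ZNF genes with known roles, 15 had a peak in both replicates, 1 in replicate 1 only (ZNF207) and 2 in replicate 2 only (ZNF326 and ZNF521). The count stands beside 71.7% of all 251 ZNF genes and 33.8% of all protein-coding genes with a peak in both replicates. The regulators of transcription were led by ZNF131, followed by ZNF281, a GC-box binding factor linked to epithelial-mesenchymal transition, with 14.4 and 8.58 at its strongest shared peak and 7.72 and 10.8 at another, and ZNF148, which binds GC-rich promoters, with 9.77 and 7.63. ZNF410, known to activate CHD4, had 10.6 and 6.33, at a summit in exons of more than 1 gene. ZNF687 and ZNF592, partners in a complex with ZMYND8, had 9.67 and 7.32 and 6.53 and 9.56, while ZNF532 of the same complex had no peak.

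Genes acting on RNA and ribosomes also had peaks. ZNF638, an RNA-binding nuclear protein that acts in retroviral DNA silencing, had 5 peaks in each replicate, with 10.4 and 5.77 at its strongest shared peak. ZNF598, the ubiquitin ligase that marks collided ribosomes, had 6 and 2 peaks, with 7.89 and 5.56 at a summit that likewise lay in exons of several genes. ZNF622, a factor of 60S ribosome maturation, had 9.03 and 4.85, and ZNF346, a binder of double-stranded RNA, had 9.45 and 3.74. In each of these 4 genes the strongest shared peak was higher in replicate 1.

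The oncogene ZNF217, whose protein is known to bind METTL3, had 3 and 4 peaks with 5.63 and 6.40 at its strongest shared peak, 284 and 318 nt before the stop codon, and 4.69 and 6.995 at another. ZNF703, an oncogene of luminal breast cancer, had 3 and 2 peaks but the values were low, with 2.05 and 1.62 at its strongest shared peak. No exonic peak was found in ZNF750, a driver of squamous differentiation, in ZNF143, an activator of many promoters, or in the neural factor ZNF423.

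The 53 genes with no peak had a median exonic length of 4797 nt, against 5801 nt in the 180 with a peak in both replicates, and 17 of them had the KRAB pattern. The longest of them were ZNF827 (19123 nt of exon), ZNF483, ZNF385D, ZNF462 and ZNF831. By chromosome, the share with a peak in both replicates ran from 3 of 8 on chromosome 4 to 27 of 30 on chromosome 16 and 7 of 7 on chromosome 15. Chromosome 7, with the most ZNF genes, had 23 of 35. Other genes had 27.5% on chromosome 4, 42.7% on chromosome 16, 37.0% on chromosome 15 and 32.1% on chromosome 7.

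Finger arrays resemble each other, so reads of one gene can be mapped to another. In 5 ZNF genes, 50% or more of the 50-mers of the exons also occurred in other genes, and 2 of these had a peak in both replicates, against 178 of the other 246 (72.4%). Of the summit windows of all ZNF genes, 2.75% in replicate 1 and 3.34% in replicate 2 held a 50-mer found in another gene. Summits in exons of more than 1 gene were 45 in replicate 1 (8.88%) and 36 in replicate 2 (8.85%), and cannot be told apart without strand.

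The partners of KRAB repression were given in the same lists. Of 14 such genes, 6 had a peak in both replicates: the histone methyltransferase SETDB1, its cofactor ATF7IP, the remodeller CHD3, the HUSH subunits MPHOSPH8 and TASOR, and MORC2. The share over all protein-coding genes was 33.8%, as given above, so 6 of 14 is near it. SETDB1 reached 16.01 and 9.32 and TASOR 19.8 and 11.1. CHD4 and PPHLN1 had a peak in replicate 1 only, and TRIM28 itself, CBX1, CBX3, CBX5, HDAC1 and HDAC2 had none. Of 8 epithelial genes and genes known for OE-19 cells, CDH1 and GATA6 had a peak in both replicates, VIL1 in replicate 1 only, and EPCAM, KRT8, KRT18, KRT19 and ERBB2 had none, so 2 of 8 had a peak in both replicates, against 33.8% of all genes. Of 5 genes of other cell types, COL1A1 had a peak in replicate 1 only and the rest none. Peaks do not give expression levels, so the labelled cell line could not be checked from them.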

How the data were processed

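The 2 m6A IP samples with a peak list each were used, grouped by their labels. According to the study's methods, RNA was fragmented before m6A pulldown, whereas the labels describe UV-fixed cells. The submitters' processing notes name fastp, HISAT2 and MACS2 with hg38, while the study's methods name TopHat2. Versions, and whether input served as control, are not given in the sources used here. The authors deposited, for every peak, a ratio of summit signal to the caller's background (fold enrichment), −log10 of the p-value and q-value, a score that was not used, and the summit offset. The highest q was 0.0491 and 0.0497 in the 24607 and 19318 peaks.

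Genes, exons and CDS were taken from GENCODE version 44 on hg38, 1-based. Summits were assigned to every protein-coding gene whose exon held them, so some peaks and pairs were counted for more than 1 gene. An overlap of 1 bp or more made peaks shared. Other genes were weighted to the lengths of the ZNF genes in 20 bins. A C2H2 match was C, 2 or 4 residues, C, 12 residues, H, 3 to 5 residues, H in the translated CDS. The KRAB pattern held the conserved tryptophan, leucines and valine of the A box at their usual spacing. Length shares are means over summits of the share in each gene. The ZNF genes, lists and named genes (the 10 strongest shared peaks, the 10 with most peaks, the 5 longest without a peak, and 22 of known role) were chosen with earlier results of these data known. Scripts were tested on simulated data with Python 3.11.15, numpy 2.4.6, scipy 1.17.1 and matplotlib 3.10.9. The closing section gives the alternatives tried.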

Additional observations from a re-analysis of the deposited data

Results flagged for a closer look

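Peaks in introns stand outside the exonic counts of the ZNF genes. In replicate 1, 40 peaks had their summit in an intron of 35 ZNF genes, with a median fold enrichment of 6.20, and in replicate 2, 34 peaks lay in introns of 24 genes, with a median of 5.71. Of these, 37.5% in replicate 1 and 44.1% in replicate 2 overlapped a peak of the other replicate, fewer than the 72.8% and 95.8% of the exonic peaks. They drew attention as signal in data that the comparisons did not use. Their source was not tested.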

How the results depend on the processing

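Of 138 values recomputed for 17 results, 113 stayed within the interval or the spread between replicates (for a count, within 1.5 times). A further 25 moved by more. A change of direction could be seen only for the ratio to other genes of like length, and 0 of its values showed one. For the remaining results, other genes were not recomputed. With peaks of fold enrichment 5 or more, the ratio to other genes of like length was 2.59, the last exon held 72.6% and 77.3% of summits, 63.9% and 90.2% of peaks were shared, r was 0.458 and the median fold enrichment was 8.08 and 7.22. With q of 1e-05 or less the median of replicate 1 was 7.55, and with an equal number of peaks per list it was 7.48, with 79.2% and 88.7% shared. An overlap of 50% of both peaks left 59.4% and 74.2% shared. With peak midpoints in place of summits, GGAC was in 33.97% and 38.3% of windows, and within 100 nt of the summit it was in 61.5% and 61.95%. With 100 nt to either side of the stop codon, the window held 7.61% and 9.51% and the rest of the CDS 69.6% and 67.6%. The C2H2 matches alone, without the sequence between them, held 32.3% and 29.2% of CDS summits. Their share of the CDS length was not computed, so these values cannot be set against length. A threshold on the measure itself, or a wider or narrower window, moves its value by construction. For the other moves the cause was not tested.

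With each replicate left out in turn, 182 to 196 ZNF genes had a peak, and the ratio was 1.62 to 1.85, the lower value without replicate 2. The other results are given per replicate. Leaving out the 5 genes with near-identical copies or the 10 genes with no C2H2 match, chosen after seeing the data, moved no result beyond these limits. No paired analysis was possible because no groups were compared. Depth and expression were unknown and limit every share of genes with a peak.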

Other observations

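The position of summits along the CDS, counted in 5 equal parts from its 5′ end and with the stop codon window included, gave a further view. In ZNF genes outside chromosome 19 part 1 held 20.6% of 349 CDS summits in replicate 1 and 18.5% of 287 in replicate 2, part 2 22.6% and 22.6%, part 3 16.6% and 14.98%, part 4 16.9% and 17.1%, and part 5 23.2% and 26.8%. In other genes part 5 held 29.3% and 30.7% and part 2 held 16.7% and 16.9%. The intervals of ZNF and other genes did not overlap for part 2 in either replicate, and for part 5 in replicate 1 only. They too leave out clustering of summits within genes.

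Among the letters of DRACH cores tried beside GGAC, AAAC was in 38.3% and 38.8% of ZNF summit windows and 39.7% of tiled windows. GAAC was in 33.6% and 33.7% against 27.7%, and AGAC in 39.1% and 35.7% against 31.6%. On chromosome 19 the summit windows of ZNF genes held GGAC in 33.9% of cases in replicate 1 and 34.8% in replicate 2.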
